A study of Mus musculus with 10 samples.

Results

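The nuclear factor I (NFI) family is a group of 4 genes, *Nfia*, *Nfib*, *Nfic* and *Nfix*, and *Zbtb20* is a single gene of the large ZBTB class of zinc finger regulators. These 5 genes were selected by symbol from the 14300 genes of the deposited counts table, and all 5 were found there. Their counts were compared between TdTomato+ and TdTomato- cells sorted from *Grem1creERT; Rosa26LSLTdtomato* embryos on a C57BL/6J background, with 5 libraries of each population. Every embryo of both populations carried the reporter alleles, received tamoxifen at mid-gestation, while cortical neurons are being born, and was collected 24 h later. The titles give each library a mouse number from 2 to 6, and each number has a TdTomato+ and a TdTomato- library. TdTomato marks cells in which the Cre recombinase driven by *Grem1* had been active since tamoxifen, together with any progeny made in that time, so TdTomato- cells are all other live cells of the dissection and not a cell type. The sample descriptions call the tissue brain, whereas the methods of the study describe dissected dorsal telencephalon, the roof of the forebrain that forms the cortex and hippocampus. Whether a mouse number stands for a single embryo or a pool is not given in the sources used here, so p-values measure the spread between these numbered samples.

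NFI proteins bind DNA as pairs, of like or unlike members, at a palindrome made of TTGGC and its complement GCCAA. In the developing cortex they are known to restrain self-renewal of radial glia, the progenitors that line the ventricle, and to promote astrocyte formation, and NFIA, NFIB and NFIX are also present in young deep-layer neurons. Zbtb20 is a transcriptional repressor that is known to specify hippocampal pyramidal neurons, partly by repressing genes of the neighbouring isocortex, and to promote astrocyte formation from late progenitors.

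The depth was 23429034 to 27286180 counts per library, so counting error of the 5 genes is small. *Grem1*, the gene that drives Cre, was at 6.11 CPM (counts scaled to the TMM-adjusted size of the library) in TdTomato- and 63.3 CPM in TdTomato+ cells. The marker lists of other cell types differed between the populations, and their counts stand against 39.4% of all 14300 genes called as lower and 37.9% as higher in TdTomato+ cells (edgeR, adjusted p of 0.05 or less). All 8 radial glia markers were lower in TdTomato+ cells, with a summed level of 1572 to 1848 CPM in TdTomato- and 128 to 176 CPM in TdTomato+ libraries, as were all 6 proliferation markers and all 6 markers of intermediate progenitors. All 7 markers of GABAergic cells, which include migrating interneurons, were lower as well, at 1331 to 1707 CPM in TdTomato- and 44.7 to 68.1 CPM in TdTomato+ libraries. Of 6 glutamatergic markers 5 were higher, with summed levels of 1589 to 2251 CPM and 5453 to 6583 CPM. All markers that were in the table for Cajal-Retzius cells (6), microglia (5), red blood cells (5) and oligodendrocyte precursors (3) were lower too, and the microglial *P2ry12*, *C1qa* and *C1qb* had 3 counts or fewer in every TdTomato+ library. Of the 4 pericyte markers 3 were lower, as were 1 of 2 of endothelium and 1 of 2 of meninges, and none was higher. The dorsal telencephalon markers *Emx1*, *Emx2* and *Lhx2* were detected in both populations and were lower in TdTomato+ cells. In bulk libraries such as these, fewer cells of a type and less RNA per cell cannot be told apart, and the part of the mixture of cells in each result below was not tested.

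**Figure D1:**
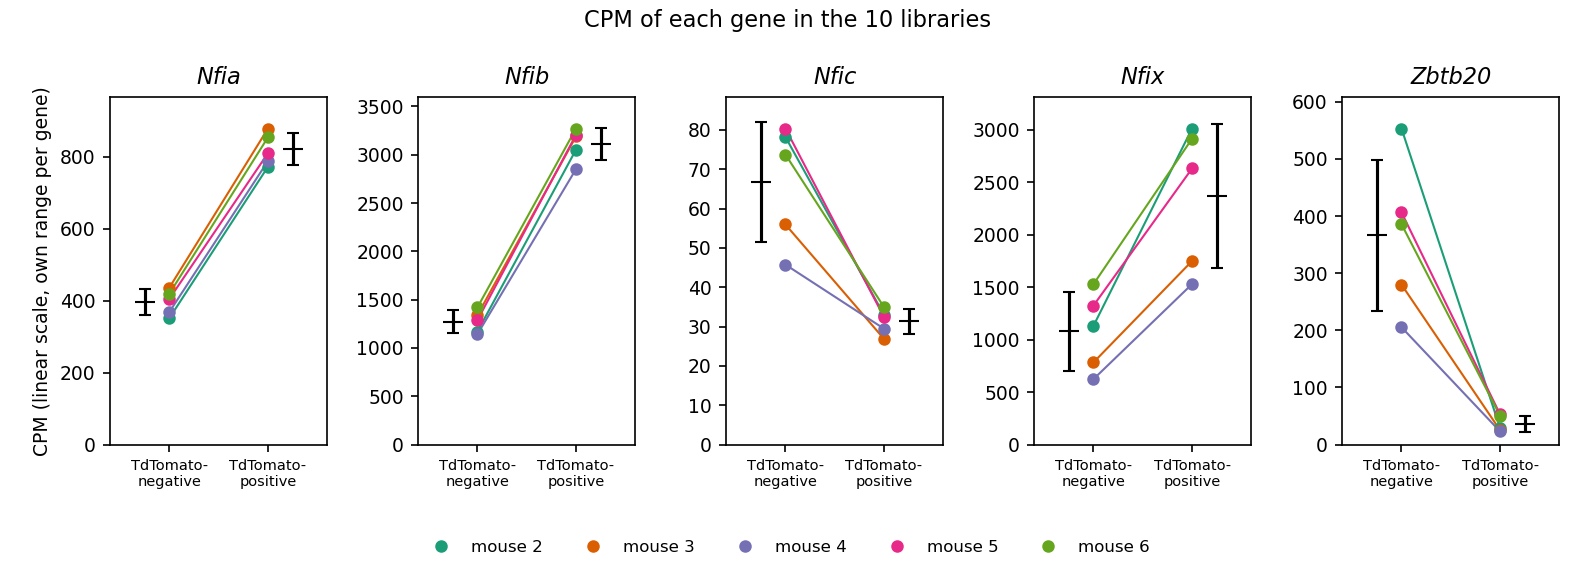
CPM of the 5 genes in the 10 libraries, on a linear axis with its own range for each gene. Points are libraries, lines join both libraries of a mouse number, and black bars beside the points give mean±s.d. over 5 mice. *Nfia*, *Nfib* and *Nfix* rose and *Nfic* and *Zbtb20* fell in every mouse.

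The NFI family did not move as a block. *Nfia*, *Nfib* and *Nfix* were about 2-fold higher in TdTomato+ cells, *Nfic* was about 2-fold lower, and *Zbtb20* was about 10-fold lower. Each of the 5 genes was called in the edgeR quasi-likelihood test paired by mouse, at a threshold of 0.05 on the p-value adjusted over 14300 genes (Benjamini-Hochberg). So were 77.3% of all genes tested, 37.9% as higher and 39.4% as lower, so a call alone sets no gene apart. All 5 changed by at least 1 on the log2 scale, which, together with a call, was true of 28.5% of all genes. The levels of all 5 genes did not overlap between populations, which was also true of 61.6% of all genes. *Zbtb20* alone passed the fold change threshold of the study, an absolute log2 fold change of 2 or more, which 12.9% of genes passed, 3.2% as higher and 9.74% as lower.

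*Nfib* (ENSMUSG00000008575, GRCm38 chromosome 4, 82290173 to 82705750, minus strand) was the NFI gene with the largest increase. It encodes the member required for normal development of the lung and of the corpus callosum. Its level was 1170, 1340, 1143, 1288 and 1420 CPM in TdTomato- cells of mice 2 to 6 and 3053, 3190, 2852, 3207 and 3272 CPM in TdTomato+ cells of the same mice. The lowest TdTomato+ library was thus well above the highest TdTomato- library. The means were 1272±116 and 3115±167 CPM (s.d., n = 5), and the fitted log2 ratio was 1.29±0.04 (s.e., edgeR adjusted p = 8.6e-09).

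*Nfia* (ENSMUSG00000028565, GRCm38 chromosome 4, 97772734 to 98118874, plus strand) lies on the same chromosome. It encodes a member that is known above all for the onset of gliogenesis in spinal cord and brain. Its level was 352, 436, 369, 405 and 420 CPM in TdTomato- cells of mice 2 to 6 and 772, 878, 788, 810 and 854 CPM in TdTomato+ cells. All TdTomato+ libraries were above all TdTomato- libraries, and the mice kept the same order in both populations, with mouse 3 highest and mouse 2 lowest. The means were 396±35.3 and 820±44.6 CPM, and the fitted log2 ratio was 1.05±0.04 (s.e., edgeR adjusted p = 1.8e-08).

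*Nfix* (ENSMUSG00000001911, GRCm38 chromosome 8, 84699876 to 84800344, minus strand) encodes a member known for its part in hippocampal and cerebellar development and in the quiescence of neural stem cells. Its level was 1132, 783, 624, 1325 and 1529 CPM in TdTomato- cells of mice 2 to 6 and 3013, 1750, 1530, 2632 and 2916 CPM in TdTomato+ cells. The populations nearly touched, since the highest TdTomato- library, that of mouse 6, was at 1529 CPM and the lowest TdTomato+ library, that of mouse 4, at 1530 CPM. Within each mouse the TdTomato+ library was higher. The means were 1078±374 and 2368±684 CPM, and the fitted log2 ratio was 1.16±0.07 (s.e., edgeR adjusted p = 5.4e-07).

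*Nfic* (ENSMUSG00000055053, GRCm38 chromosome 10, 81396186 to 81455635, minus strand) moved in the opposite direction. It encodes the member best known for tooth root formation. Its level was 78.2, 56.0, 45.7, 80.3 and 73.7 CPM in TdTomato- cells of mice 2 to 6 and 33.0, 26.9, 29.4, 32.4 and 34.9 CPM in TdTomato+ cells. Every TdTomato+ library was below every TdTomato- library, with the smallest distance in mouse 4. The means were 66.8±15.2 and 31.3±3.18 CPM, and the fitted log2 ratio was −1.07±0.09 (s.e., edgeR adjusted p = 4.8e-06).

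*Zbtb20* (ENSMUSG00000022708, GRCm38 chromosome 16, 42875881 to 43642602, plus strand) was at 553, 280.0, 205, 406 and 386 CPM in TdTomato- cells of mice 2 to 6 and at 28.9, 25.2, 23.0, 52.8 and 50.4 CPM in TdTomato+ cells. The lowest TdTomato- library, that of mouse 4, was still above the highest TdTomato+ library, that of mouse 5. The means were 366±133 and 36.0±14.4 CPM, and the fitted log2 ratio was −3.34±0.18 (s.e., edgeR adjusted p = 2.6e-07), which is 10.2-fold lower. Tested against a log2 fold change of 2 in place of 0 (TREAT of edgeR), *Zbtb20* remained called with an adjusted p of 6.2e-05, and each of the 4 NFI genes had an adjusted p of 1.

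**Figure D2:**
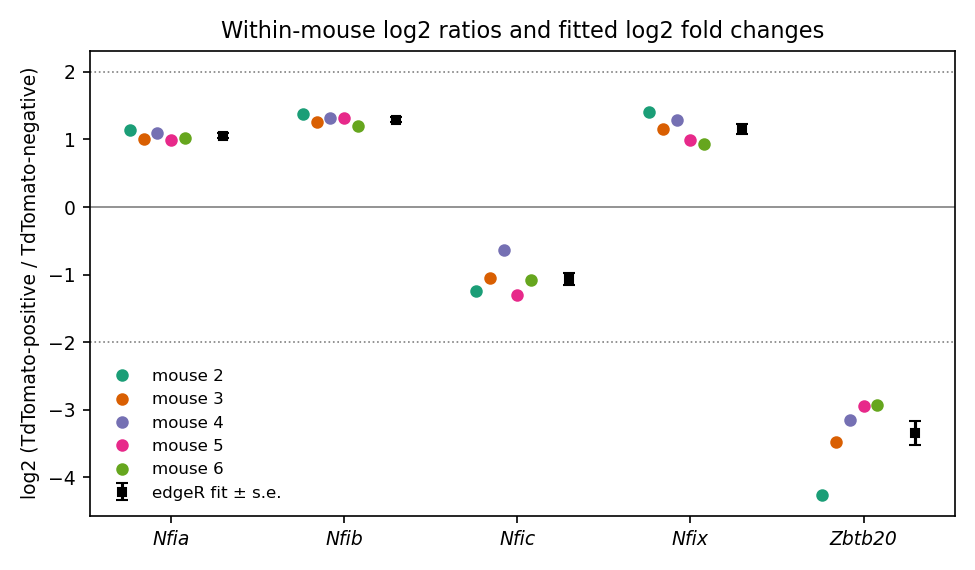
Log2 ratio of TdTomato+ to TdTomato- CPM within each of the 5 mice (coloured points) and the edgeR log2 fold change with its standard error (black squares) for each gene. Dotted lines mark the threshold of 2 in either direction. Ratios of *Nfia*, *Nfib* and *Nfix* lie between 0.93 and 1.41, those of *Nfic* between −1.31 and −0.63, and those of *Zbtb20* between −4.26 and −2.94.

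The size of the change was compared between genes as the difference of their within-mouse log2 ratios, from which any factor that scales a whole library drops out. All 10 pairs of the 5 genes were tested with a two-sided exact sign-flip permutation test over 5 mice, in which 0.0625 is the smallest p possible, so that no pair could reach 0.05. Of the 10 pairs 8 had this smallest p (0.078 after adjustment over the 10 pairs), with the same sign in all 5 mice. *Nfib* rose more than *Nfia* in each mouse, by 0.24±0.05 on the log2 scale (exact permutation p = 0.0625). The ratio of *Nfix* was between those of *Nfia* and *Nfib* on average. It differed from that of *Nfia* by 0.10±0.15 (exact permutation p = 0.25, range over mice of *Nfia* minus *Nfix* −0.28 to 0.09) and from that of *Nfib* by 0.14±0.16 (exact permutation p = 0.1875, range of *Nfib* minus *Nfix* −0.03 to 0.33), so an order of these pairs was not detectable with 5 mice. *Nfic* differed from *Nfia*, *Nfib* and *Nfix* by 2.12, 2.36 and 2.22 on the log2 scale, and *Zbtb20* lay a further 2.29±0.55 below *Nfic*. Mouse 2 had the largest fall of *Zbtb20*, −4.26 against −3.47, −3.15, −2.94 and −2.94 in mice 3 to 6, and its TdTomato- library held the most *Zbtb20* of all libraries. Without mouse 2 the fitted log2 fold change of *Zbtb20* was −3.12.

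Levels of different genes are comparable only per length, and CPM was therefore divided by the exonic length in kb. On this scale *Nfix* was the most abundant of the 5 genes in both populations, at 147 CPM per kb in TdTomato- and 322 CPM per kb in TdTomato+ cells. *Nfib* followed at 85.1 and 208 CPM per kb and *Nfia* at 36.4 and 75.3 CPM per kb. *Zbtb20* and *Nfic* were close in TdTomato- cells, at 11.9 and 10.1 CPM per kb, and parted in TdTomato+ cells, at 1.17 and 4.72 CPM per kb. Among the 14271 genes with a length, *Nfix* moved from rank 129 to rank 52 and *Nfib* from rank 319 to rank 94 between TdTomato- and TdTomato+ cells, whereas *Zbtb20* moved from rank 4225 to rank 10756. *Zbtb20* has a long annotated exonic length, which lowers its value on this scale.

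The summed level of the 4 NFI genes was 278±58.9 CPM per kb in TdTomato- and 610±99.5 CPM per kb in TdTomato+ cells. *Nfix* held 51.5±8.04% of it in TdTomato- and 51.9±7.27% in TdTomato+ cells, a difference of 0.38 percentage points (exact permutation p = 0.75, higher in 3 of 5 mice). The sign of this difference turned with the longest transcript as length, with no length scaling and without mouse 2. The share of *Nfib* was 31.4±5.36% and 34.7±4.90%, 3.34±1.71 points higher in TdTomato+ cells and higher in 5 of 5 mice (exact permutation p = 0.0625). That of *Nfia* was 10.3% to 15.2% in the TdTomato+ and 10.9% to 16.8% in the TdTomato- population, and it was higher in TdTomato+ cells of 1 of 5 mice (exact permutation p = 0.13). The share of *Nfic* fell from 3.63±0.435% to 0.783±0.0857%, by 2.84±0.476 points, in all 5 mice (exact permutation p = 0.0625). After adjustment over the 4 genes the p-values were 0.75 for *Nfix*, 0.13 for *Nfib*, 0.17 for *Nfia* and 0.13 for *Nfic*. The composition thus kept its order per length, *Nfix*, *Nfib*, *Nfia*, *Nfic*, in the means of both populations, and *Nfic* made up less than 1% of it in every TdTomato+ library.

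**Figure D3:**
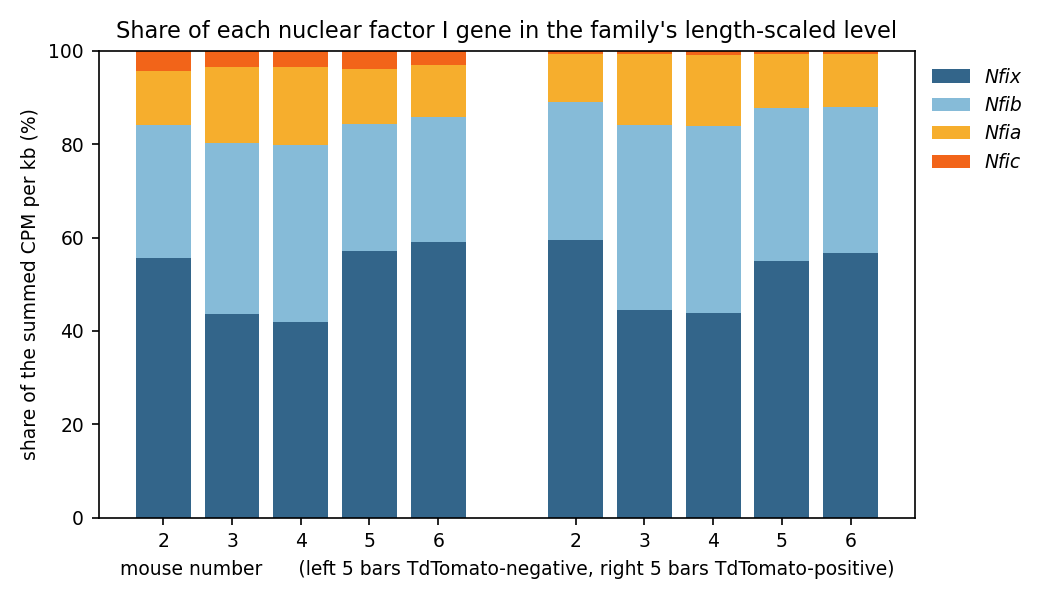
Share of each NFI gene in the summed CPM per kb of the 4 genes, in percent, for each library by mouse number. *Nfix* ranges from 42.0% to 59.4%, with its lowest shares in mice 3 and 4 of both populations, and *Nfic* shrinks from at least 3.16% in TdTomato- to at most 0.934% in TdTomato+ libraries.

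The 5 genes differed in how much they varied between mice. *Nfia* and *Nfib* varied least of the 5, with an s.d. of log2 CPM of 0.13 in TdTomato- and 0.08 in TdTomato+ libraries for both. *Nfix* had an s.d. of 0.54 and 0.45, and *Zbtb20* of 0.55 and 0.57. Among genes with a mean log2 CPM of at least 3, the s.d. of *Nfix* was larger than that of 99.2% of genes in TdTomato- and 97.1% in TdTomato+ libraries, and that of *Zbtb20* larger than that of 99.3% and 98.4%. For *Nfia* these shares were 62.4% and 33.5%, and for *Nfib* 63.2% and 34.4%, so both were nearer to the middle of all genes. *Nfic* varied in TdTomato- libraries, with an s.d. of 0.35, and less in TdTomato+ libraries, with 0.15. For *Nfix*, *Zbtb20* and *Nfic*, mice 3 and 4 were the lowest pair in both populations. Of 9785 genes with a mean log2 CPM of at least 3, 645 (6.59%) had this pattern, which was looked for after the values of the 3 genes had been seen. In *Nfix* the difference between the highest and the lowest mouse, 2.45-fold in TdTomato- libraries, was as wide as the 2.23-fold difference between populations. Sequencing depth was similar in all libraries, and other properties of the mice were not tested.

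**Figure D4:**
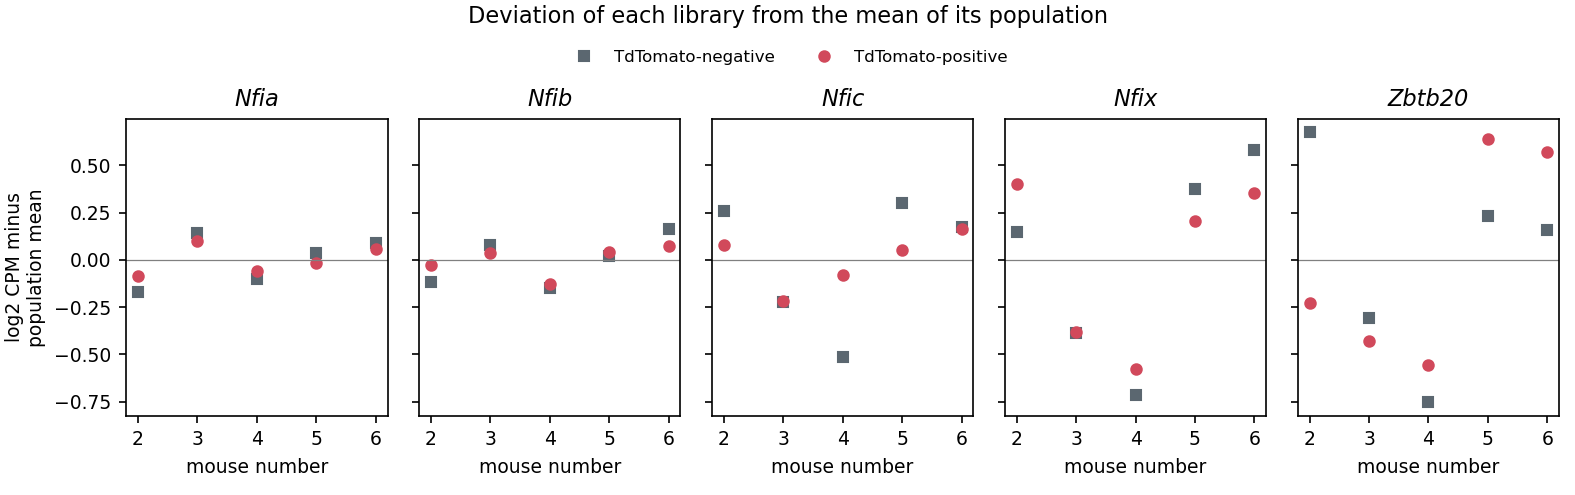
Log2 CPM of each library minus the mean of its population, by mouse number, for the 5 genes. *Nfia* and *Nfib* stay between −0.17 and 0.16, and mice 3 and 4 are below 0 in both populations for *Nfic*, *Nfix* and *Zbtb20*.

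For each of the 5 genes, the 3 genes with the most similar pattern were taken by Pearson's r of log2 CPM over the 10 libraries, among genes with a mean log2 CPM of at least 3. These values describe libraries that share mice and fall into 2 populations, so a large r is common. For *Nfia* the closest was *Nfib* itself (r = 0.995), and 1123 genes had r above 0.95. For *Nfib* it was *Fezf2* (r = 0.997), which encodes the regulator of corticospinal neuron identity. *Tulp3* was among the closest to *Nfic* (r = 0.988), and for *Zbtb20* it was *Mfge8*, which encodes a secreted glycoprotein (r = 0.995), followed by *Epha4*, an ephrin receptor gene. *Nfix* had the fewest close genes, 40 with r above 0.95. The closest to it was *Gm11266* (r = 0.982), an antisense transcript inside the body of *Nfib*, followed by *Gfpt2* and *Ube2ql1*. After the means of the populations were removed, r of *Nfix* with *Gm11266* was 0.968.

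Neighbouring genes did not share one direction. *Gm11266* has no exon in common with *Nfib* and rose by 0.60 (s.e. 0.07, edgeR adjusted p = 5.2e-05), from 13.9 to 21.1 CPM, less than *Nfib*. *E130114P18Rik* shares exonic sequence with *Nfia* on the opposite strand and was lower in TdTomato+ cells (−0.50, s.e. 0.07, adjusted p = 1.2e-04, edgeR). *G430095P16Rik*, on the strand opposite to *Nfix*, was rare and rose by 0.76 (s.e. 0.22, edgeR adjusted p = 0.0099). The strand column used for the counts is not given in the sources used here, so reads of opposite strands may have been counted together, but at most 1.92% of the exonic length of any of the 5 genes overlaps another gene. No stretch of 75 bases in the annotated transcripts of one of the 5 genes was found in those of another, so reads of that length without a mismatch are not shared between them. The nearest gene above *Nfic*, *Celf5*, rose by 1.25 (s.e. 0.04) where *Nfic* fell, and the nearest gene on its other side, the rare *Smim24*, rose by 1.49 (s.e. 0.21). Beside *Zbtb20*, *Qtrt2* was lower (−0.68, s.e. 0.08, edgeR adjusted p = 5.8e-05), in the direction of *Zbtb20*, and *Gap43*, which lies farther away on the other side, rose by 1.30 (s.e. 0.06). Of the nearest genes of *Nfia*, *Nfib* and *Nfix*, *Gm12696* beside *Nfia* (−0.57) and *Mpdz* beside *Nfib* (−0.96) were lower, and *Tm2d1*, *Zdhhc21*, *Trmt1* and *Dand5* were not called (0.04 to 0.17).

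Genes that earlier work describes as regulated by NFI proteins changed in both directions. Of 15 such genes 12 were in the table, and all 12 were called, 4 as higher and 8 as lower, where 77.3% of all genes tested were called, 37.9% as higher and 39.4% as lower. The median log2 fold change of the 12 genes was −1.34, and that of all genes tested −0.0063. *Zcchc24* and several genes that mark radial glia and astrocytes had the lowest values. *Zcchc24* fell by 5.58 (s.e. 0.15, edgeR adjusted p = 4.3e-09), from 15.3 to 31.4 CPM in TdTomato- libraries to 0.317 to 0.678 CPM in TdTomato+ libraries. *Hes1*, an effector of Notch signalling, fell by 4.63. *Sox9*, a regulator of glial competence (−4.10), *Fabp7*, which encodes the brain lipid-binding protein of radial glia (−3.97), and *Slc1a3*, an astrocyte glutamate transporter gene (−2.19), fell as well. *Efnb1* (−1.40), *Bbx* (−1.29) and *Ezh2* (−0.64), the methyltransferase gene of Polycomb complexes, were also lower in 5 of 5 mice. *Apcdd1*, a Wnt inhibitor gene, was higher, from 68.3±11.5 to 166±23.2 CPM, and the fitted log2 ratio was 1.29±0.06 (s.e., edgeR adjusted p = 6.9e-08). The adhesion genes *Cntn2* (0.53) and *Cdh2* (0.52) and the membrane protein gene *Mmd2* (0.36, s.e. 0.09, adjusted p = 0.0061) rose little, and the levels of *Cntn2* and *Mmd2* overlapped between populations. With library size as the only scaling, *Mmd2* was no longer called (0.18, edgeR adjusted p = 0.11). Of these 12 genes, *Hes1*, *Fabp7* and *Slc1a3* are also in the list of radial glia markers, and their part in the count was not tested.

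Of 16 genes of the astrocyte lineage 14 were in the table, and 13 were lower and none was higher in TdTomato+ cells, with a median of −4.47, where 39.4% of all genes were lower. *Aqp4* had 3 counts or fewer in every TdTomato+ library. *Slc1a2*, a glutamate transporter gene, was not called (0.13), and *Glul*, the glutamine synthetase gene, differed little (−0.12). Without mouse 2, 4 or 6, 12 were lower. The list shares *Sox9*, *Slc1a3* and *Hes1* with the NFI-regulated list and *Hes1*, *Hes5* and *Slc1a3* with the radial glia markers, all 8 of which were lower, and the part of progenitors in these values was not tested.

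Promoter sequences show what the half-site of NFI looks like at these genes. The windows are the 250 bases before the start of a RefSeq promoter entry (GRCm38.p6), which was present for 4 of the 5 genes and for 7 of the 12 NFI-regulated genes. The letters TTGGC and GCCAA, which are the same half-site read on either strand, were searched, and each match is printed in capitals. A promoter of *Nfix* that holds the half-site, the promoter of *Zbtb20* and those of 3 regulated genes are shown, with *Zcchc24* and *Fabp7* as genes that fell and *Cntn2* as a gene that rose. The *Nfix* window lies at chr8:84775829-84776078 on the minus strand, that of *Zbtb20* at chr16:43247034-43247283 on the plus strand, that of *Zcchc24* at chr14:25769073-25769322 on the minus strand, that of *Fabp7* at chr10:57784673-57784922 on the plus strand and that of *Cntn2* at chr1:132542941-132543190 on the minus strand.
Nfix: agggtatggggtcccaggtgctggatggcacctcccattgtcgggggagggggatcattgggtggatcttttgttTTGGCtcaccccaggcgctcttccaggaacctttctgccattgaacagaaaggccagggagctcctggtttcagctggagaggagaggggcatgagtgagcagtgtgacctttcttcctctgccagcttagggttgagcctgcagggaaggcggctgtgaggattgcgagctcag
Zbtb20: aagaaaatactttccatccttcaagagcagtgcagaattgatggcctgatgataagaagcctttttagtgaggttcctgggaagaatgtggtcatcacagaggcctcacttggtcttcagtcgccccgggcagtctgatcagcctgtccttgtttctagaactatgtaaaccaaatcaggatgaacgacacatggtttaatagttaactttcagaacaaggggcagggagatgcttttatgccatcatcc
Zcchc24: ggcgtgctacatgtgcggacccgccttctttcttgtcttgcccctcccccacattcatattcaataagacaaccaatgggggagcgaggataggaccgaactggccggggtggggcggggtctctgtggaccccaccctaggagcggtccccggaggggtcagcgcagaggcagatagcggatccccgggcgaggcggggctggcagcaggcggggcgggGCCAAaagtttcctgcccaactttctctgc
Fabp7: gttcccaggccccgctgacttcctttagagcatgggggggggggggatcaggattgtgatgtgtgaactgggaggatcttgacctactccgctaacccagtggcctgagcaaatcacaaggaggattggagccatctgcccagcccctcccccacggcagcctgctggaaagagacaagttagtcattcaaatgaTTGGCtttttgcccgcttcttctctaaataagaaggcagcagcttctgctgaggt
Cntn2: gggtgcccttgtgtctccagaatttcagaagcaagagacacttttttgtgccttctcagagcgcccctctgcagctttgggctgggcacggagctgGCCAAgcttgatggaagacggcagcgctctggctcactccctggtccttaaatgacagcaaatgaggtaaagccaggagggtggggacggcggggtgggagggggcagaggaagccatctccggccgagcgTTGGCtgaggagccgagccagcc

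The half-site was found in 2 of 4 windows of *Nfix* and in none of the windows of *Nfia*, *Nfic* and *Zbtb20*. It was present in 41.5% of 32851 promoters of the same length, so that a match by itself is common. Of the 7 regulated genes with a window, 6 held it, which is a description of a few promoters. The match in *Fabp7* lies 55 to 51 bases before the start and that in *Zcchc24* 30 to 26 bases before it, whereas *Cntn2* holds 2, in opposite orientations and far apart. The full palindrome, TTGGC and GCCAA with any 5 bases between them, was in 12 of the 32851 promoters (0.0365%) and in none of these windows. The matches say nothing of binding. The windows of *Nfix* and *Zbtb20* are at internal starts, 24.5 and 371 kb from the outermost annotated start of the gene, and from which start these libraries were transcribed cannot be read from counts per gene.

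Genes of isocortical projection neurons that Zbtb20 is described to repress in the hippocampus changed in both directions. Of 8 such genes 5 were higher, 2 were lower and 1 was not called, beside 37.9% higher and 39.4% lower over all genes. The median log2 fold change of the 8 genes was 1.86. *Mef2c*, a regulator of cortical neuron maturation, was far more abundant in TdTomato+ cells (514±109 CPM) than in TdTomato- cells (71.3±12.7 CPM), and the fitted log2 ratio was 2.84±0.07 (s.e., edgeR adjusted p = 2.9e-09). *Rorb*, known for layer 4 identity, rose by 2.52 (s.e. 0.16), from 18.8 to 21.7 CPM in TdTomato- libraries to 68.5 to 153 CPM in TdTomato+ libraries. *Fezf2* and *Tbr1*, regulators of deep-layer identity, rose by 2.33 and 2.32. *Cux1* and *Cux2*, which mark upper layers, fell by 2.63 (s.e. 0.05) and 2.08 (s.e. 0.20), in the direction of *Zbtb20*. The value of *Foxp2* was −0.52 (s.e. 0.25, edgeR adjusted p = 0.081) and was lower in 4 of 5 mice, and it was called as lower (−0.70, edgeR adjusted p = 0.029) with library size as the only scaling. The list therefore did not move as one, and its upper-layer members parted, *Rorb* from *Cux1* and *Cux2*.

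Wider layer lists were read in the same way. Of 12 deep-layer genes 10 were higher, 1 was lower and 1 was not called, with a median of 2.4, where 37.9% of all genes were higher. The gene that was lower was *Etv1* (−2.03, s.e. 0.14), known from layer 5. Of 12 upper-layer genes 5 were higher and 6 lower, with a median of −0.91, and these counts are near the shares of all genes (37.9% and 39.4%). *Cdh13* (3.16), *Rorb*, *Plxnd1* (2.38) and *Mdga1* (0.92) were among those higher, and *Unc5d*, *Cux1*, *Pou3f2*, *Pou3f3*, *Cux2* and *Pou3f1* were lower, by 1.85 to 2.64. *Fezf2*, *Tbr1* and *Foxp2* of the deep-layer and *Cux1*, *Cux2* and *Rorb* of the upper-layer list are also in the list of genes described as repressed by Zbtb20.

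Genes of the hippocampal primordium and of the cortical hem, the signalling centre beside it, fell together with *Zbtb20*. Of 15 genes 14 were in the table, and 13 were lower, none was higher and *Nr3c2* was not called (0.17), with a median of −2.60, beside 39.4% lower and 37.9% higher over all genes. *Prox1*, a regulator of dentate granule cells that is also expressed in interneurons and progenitors, fell by 4.58 (s.e. 0.09, edgeR adjusted p = 1.6e-09), from 58.8 to 93.4 CPM in TdTomato- libraries to 2.45 to 4.17 CPM in TdTomato+ libraries. *Wnt8b* and *Dmrta2* fell by 4.08 and 4.14. *Emx2*, required for hippocampal growth, fell by 3.88, and *Lhx2*, which sets the border between cortex and hem, by 2.67. Several of these genes, such as *Emx2*, *Lhx2* and *Dmrta2*, are also expressed in dorsal progenitors, whose markers fell between the same libraries. Their part in these values was not tested.

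**Figure D5:**
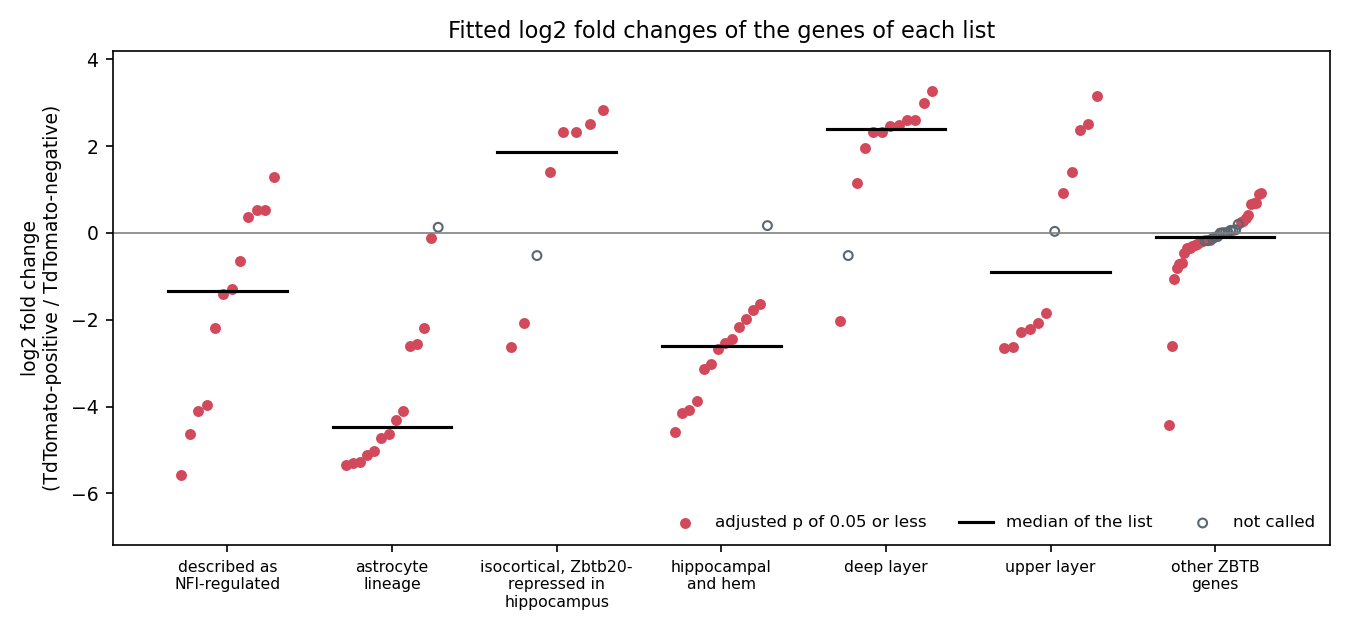
Fitted log2 fold changes of the genes of 7 lists, ordered within each list by value (filled, adjusted p of 0.05 or less; open, not called), with the median of each list as a black line. All called astrocyte lineage and hippocampal or hem genes lie below 0, and the isocortical genes described as repressed by Zbtb20 split into 5 called above and 2 called below 0.

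The fall of *Zbtb20* was large for its own family. Of the 37 other ZBTB genes that were measured, 9 were higher, 15 were lower and 13 were not called, with a median log2 fold change of −0.09. Over all genes, 37.9% were higher and 39.4% lower, so the number of ZBTB genes that were lower is near that of genes in general. With library size as the only scaling, 7 were higher and 23 lower, and the genes near 0 had no stable direction. *Zbtb42* had a larger fall (−4.42, s.e. 0.32), but it was at 1.70 to 2.66 CPM in TdTomato- libraries and at 0.0434 to 0.177 CPM in TdTomato+ libraries, a far lower level than *Zbtb20*. *Zbtb7b*, also rare, fell by 2.61 (s.e. 0.25), and the fall of the next gene, *Zbtb22*, was 1.06. At the other end *Zbtb18*, which encodes a repressor required for cortical neuron differentiation, rose by 0.93 (s.e. 0.04, edgeR adjusted p = 1.0e-07), from 625±48.9 to 1190±35.1 CPM. Per length it was at 102 CPM per kb in TdTomato- and 194 CPM per kb in TdTomato+ cells, above *Zbtb20* in both. The increase of *Zbtb18* was thus similar in size to those of *Nfia* and *Nfix*, whereas *Zbtb20* and *Zbtb18* moved in opposite directions.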

How the data were processed

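Polyadenylated RNA of TdTomato+ and TdTomato- cells, sorted at 14.5 dpc, 24 h after tamoxifen (given at 13.5 dpc), was sequenced in 10 libraries. The authors trimmed reads (Phred 28), aligned them to GRCm38 with STAR (2.4.2a in the submitters' processing notes) allowing 1 mismatch, and deposited raw counts of uniquely mapped reads per gene. Labels and methods differ in library kit, read length and sequencer. Total counts were 23429034 to 27286180 per library, and nothing is known here of genes outside the table. Symbols came from the GENCODE annotation of GRCm38 (vM21), which left 29 of 14300 identifiers unmatched. 

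Counts were fitted with edgeR 4.0.16 in R 4.3.3 (filterByExpr, which removed 0 genes; TMM; glmQLFit and glmQLFTest with a term for mouse number; prior count 0.125). P-values of 14300 genes were adjusted by the Benjamini-Hochberg method, with thresholds of 0.05 and an absolute log2 fold change of 2. The standard error is the log2 fold change divided by the square root of F. Log2 CPM used a prior count of 2. The methods of the study describe paired comparisons, and deviations of same-numbered libraries from their population means correlated by 0.303, 0.268, 0.281, 0.186 and 0.316 for mice 2 to 6. Differently numbered libraries correlated by −0.312 to 0.212. The highest of these, TdTomato- mouse 4 with TdTomato+ mouse 3, was above the same-number value of mouse 5. Shares and differences between genes were tested by exact sign-flip permutation over 5 mice. In simulated counts, 90.95% of 199 genes given a log2 change of 1 were called. The simulation changed only 200 genes and held no mouse effect, whereas most genes were called in the data. Its rate therefore checks the fit and is not the power of the real comparison. The rule for named genes covers the 5 genes, the lists, the 3 most similar genes of each, overlapping and nearest genes, and *Grem1*. The 5 genes and the lists were chosen with earlier results of these data known, so lists were only described. A few genes under this rule are left unnamed here but are counted in the lists. Alternatives were RLE, upper-quartile and no normalization factors, DESeq2 1.42.0, no filter, a filter of 1 CPM in 5 libraries, no block, TREAT, a prior count of 2, robust estimation, other lengths for shares, and each mouse left out.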

Additional observations from a re-analysis of the deposited data

Results flagged for a closer look

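Of 146 groups of 5 libraries, 6 held a library whose distance to the next value exceeded 0.71 of the range of its group, where chance gives about 7.3. *Nfic* held 0.934% of the summed NFI level in the TdTomato+ library of mouse 4, against 0.721% to 0.756% in the other TdTomato+ libraries. *E130114P18Rik*, which overlaps *Nfia*, was at 3.98 log2 CPM in the TdTomato+ library of mouse 5, against 4.21 to 4.29. *Fabp7*, an NFI-regulated radial glia gene, was at 2.64 log2 CPM in the TdTomato+ library of mouse 2, against 3.44 to 3.61. *Unc5d*, an upper-layer gene, was at 3.03 log2 CPM in the same library, against 3.71 to 3.98. *Cdh13*, also of the upper-layer list, was at 6.42 log2 CPM in the TdTomato- library of mouse 6, against 6.07 to 6.17. The microglial *C1qa* was at −3.62 log2 CPM in the TdTomato+ library of mouse 4, against −2.57 to −2.54, where all TdTomato+ libraries held 3 counts or fewer.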

How the results depend on the processing

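All 5 genes kept their direction and stayed called under each of 14 alternatives other than TREAT, with log2 fold changes of 0.88 to 1.07 for *Nfia*, 1.12 to 1.32 for *Nfib*, −1.25 to −1.01 for *Nfic*, 0.98 to 1.22 for *Nfix* and −3.52 to −3.12 for *Zbtb20*. Over all results and alternatives, 372 values kept their direction and side of the threshold or stayed close, 9 moved and 3 turned. TREAT called 273 genes higher in place of 457. Scaling by library size only shifted the median of all genes by −0.18 and the split of calls from 5424 higher and 5632 lower to 4110 higher and 7123 lower. With it, the median was −1.52 for the NFI-regulated list, 2.22 for the deep-layer list and −0.27 for the ZBTB genes, of which 23 were lower and 7 higher, and 2 deep-layer genes were lower. The difference in the share of *Nfix* was −0.33 points with the longest transcript as length and −0.67 with no length scaling. With each mouse left out in turn it ranged from −0.45 to 1.04, negative without mouse 2. The number of deep-layer genes lower was 1 to 2, with 2 without mouse 6, and the median of the ZBTB genes −0.13 to −0.058. The cause of these shifts was not tested. Without the replicate block, 5224 genes were higher and 5450 lower, and the log2 fold change of *Nfix* was 1.14 and that of *Zbtb20* −3.34. The pairing changed no call of the 5 genes. With 5 mice the exact tests cannot go below 0.0625 (0.13 without 1 mouse), so they could not reach 0.05. Counting error is small at this depth, and the spread between mice limits the precision.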
